A study of Mus musculus with 10 samples.

Results

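The loss of Fntb in central regulatory T (cTreg) cells was examined by ATAC-seq, comparing 2 FntbKO cTreg libraries with 3 WT cTreg libraries, 5 of the 10 libraries of the study. In ATAC-seq a transposase cuts into open DNA, so that the count of reads in a region measures how accessible its chromatin is. The members were chosen by their labels alone, and all 76216 regions that passed a filter on low counts, of 77076 in the table, entered the comparison. FntbKO denotes cells that lack Fntb and WT denotes wild-type cells. Treg cells of both genotypes were sorted out of spleens and lymph nodes. The animals were mixed bone marrow chimeras, that is, their blood cells grow from the marrow of more than 1 donor. The labels used here give neither the deleted part of Fntb, nor the Cre driver if one was used, nor the age of the animals, nor the markers used to sort cTreg cells, nor whether Treg cells of the host were left in the sort. They do not say whether libraries of a group came from separate animals, and the p-values measure only the spread between these libraries.

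Farnesyltransferase is made of an α subunit, shared with protein geranylgeranyl transferase type I, and the β subunit that Fntb encodes. It attaches a farnesyl lipid to a cysteine near the end of its substrates, among them RAS proteins, RHEB and the B-type and A-type lamins, which brings them to membranes. Central Treg cells are the resting, lymphoid-tissue-resident Treg cells, and effector Treg (eTreg) cells are the activated ones that arise from them after antigen-receptor stimulation.

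The libraries held 7450914 and 15328775 counts in FntbKO cTreg cells, against 5694869 to 9347634 in WT cTreg cells. FntbKO cTreg 1 and WT cTreg 2 lay at opposite ends of the first principal component of the 5 libraries, at 124.6 and -118.5, with the other FntbKO library at 29.3 and the other WT libraries at -12.2 and -23.1. This component held 43.4% of the variance. In the marker lists described below, the same pair of libraries had the highest and the lowest summed accessibility at central Treg genes. Some results that rest on either library are therefore also given without it, and others, such as the shares by position, only with all libraries. Markers of other cell types were only in part represented by regions. Of 10 B cell, 11 myeloid and 10 erythroid marker genes, 3, 3 and 5 had no region in the table, Ms4a1, Lyz2, Csf1r and Hba-a1 among them. The regions of the B cell list summed to 169 to 183 CPM in FntbKO cTreg and 173 to 184 CPM in WT cTreg libraries, and those of the myeloid list to 283 to 309 CPM and 314 to 372 CPM. All 11 genes of the CD8 T or NK cell list had regions, which summed to 442 to 466 CPM in FntbKO cTreg and 454 to 475 CPM in WT cTreg libraries. So had 7 of 8 dendritic cell genes, with 359 to 381 CPM and 375 to 422 CPM. CPM stands for counts scaled to library size (after TMM) and given relative to 1e6 counts. In bulk samples of this kind, fewer cells with an open region and less opening per cell cannot be told apart.

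More regions were called less open than more open in FntbKO cTreg cells. Of 76216 regions, 433 were called (0.568%) by edgeR's quasi-likelihood test at a Benjamini-Hochberg adjusted p of 0.05. In FntbKO against WT cTreg cells, 145 were higher (0.190%) and 288 lower (0.378%). The median log2 fold change was 1.18 over the higher and -1.30 over the lower regions, against -0.01 over all tested regions. The median of the lower regions was -1.30 also with the 3 regions that had at most 3 counts in FntbKO cTreg cells set to the bound that 3 counts allow. A median over 288 regions can hardly move when 3 of them change, so this does not test the effect of low counts. A change of at least 1 on the log2 scale was found in 90 of the higher and 198 of the lower regions. The libraries of the groups did not overlap at any called region, as was the case at 29.7% of all tested regions.

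**Figure D1:**
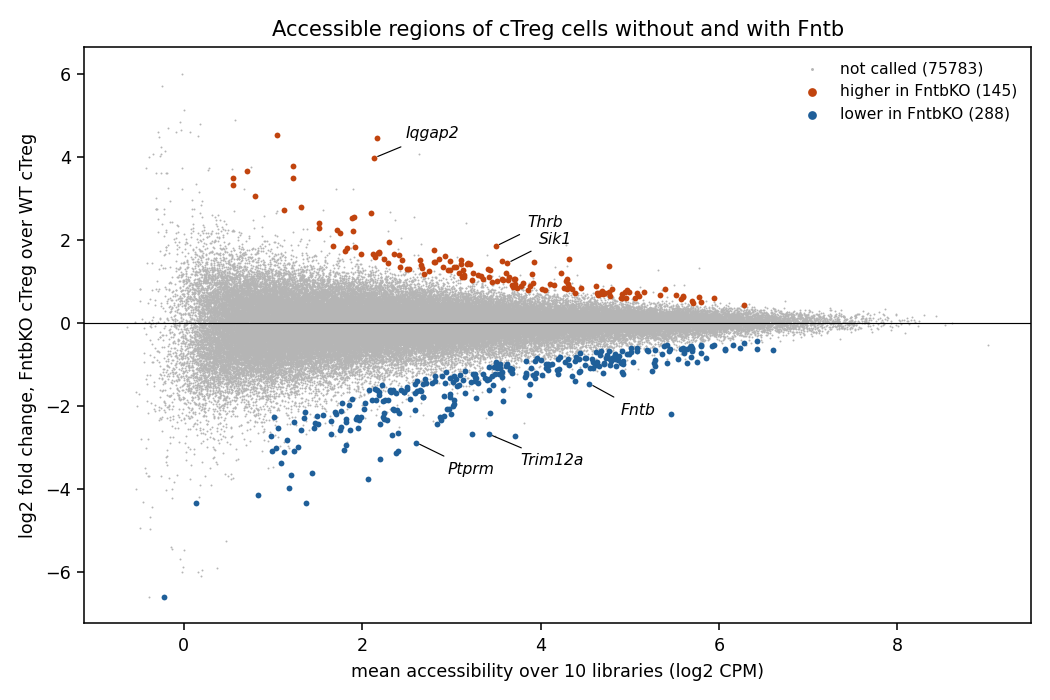
Log2 fold change of FntbKO over WT cTreg cells (vertical axis) against mean accessibility over the 10 libraries (log2 CPM, horizontal axis) for 76216 regions. The 145 higher regions are orange, the 288 lower ones blue and the others grey, with 6 regions labelled by their assigned gene. The lowest point, a region of Hfm1, had 0 counts in FntbKO cTreg cells, so its fitted fold is not a measured size.

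Both directions rested on FntbKO cTreg 1 to a large degree. Without it 41 regions were called, 13 higher and 28 lower, and 40 of these belonged to the 433 (9.24%). Without WT cTreg 2 there were 201, 61 higher and 140 lower, and without both libraries 43, 20 higher and 23 lower. Without FntbKO cTreg 2 there were 723, 134 higher and 589 lower. Cyclic loess with limma-trend, which changes the scaling and the test together, gave 110 higher and 371 lower, and limma-voom gave 221 higher and 204 lower, so the excess of closed regions was not seen with limma-voom. When each of the 10 libraries was left out in turn, 33 regions kept their call every time, 8 higher and 25 lower.

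The region at the promoter of Fntb had a lower CPM in FntbKO cells. It had 13.1 and 11.2 CPM in FntbKO cTreg libraries, against 36.9, 29.2 and 33.1 CPM in WT cTreg libraries (chromosome 12, 76837192 to 76837915 of GRCm38). A region further into the gene (76844676 to 76845058), had 1.91 and 2.46 CPM, against 10.3, 8.60 and 9.93 CPM. Both FntbKO libraries were below all WT libraries in each region, and the call of the inner region was lost without FntbKO cTreg 1. The other 11 Fntb regions were not called, such as the one at 76867580 to 76868292 with 37.7 and 38.0 CPM in FntbKO cTreg and 36.7, 40.9 and 37.4 CPM in WT cTreg libraries.

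Beside Fntb, a region inside Churc1, which encodes a zinc-binding transcription factor, was also lower. It had 1.91 and 3.50 CPM in FntbKO cTreg, against 15.1, 10.3 and 10.8 CPM in WT cTreg libraries (76778486 to 76779123; log2 fold -2.08, SE 0.30, edgeR adjusted p = 0.000486), with no overlap. Of 116 regions tested within 1 Mb on each side of Fntb, 4 were called, where 0.568% of all tested regions were. All 4 were lower, 3 of them lay within 100 kb, and 2 were the regions of Fntb itself. Around them the folds scattered about 0, with a median of -0.06. Foxp3, the lineage factor of Treg cells, had 3 tested regions, and none was called. Its most covered region had 29.3 and 35.1 CPM in FntbKO cTreg, against 33.9, 26.0 and 27.6 CPM in WT cTreg libraries. None of the 30 regions of Ptprc, which encodes the leukocyte antigen CD45, was called. With 0.568% of all tested regions called, the absence of a call among so few regions says little about Foxp3 or Ptprc.

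Promoter sequence is shown for genes whose start lies in a called region. Of 38 called promoter regions, those of Fntb, Wdfy4 and Zfp33b kept their call whichever library was left out, and those of Casp1 and Casp4 were neighbouring promoters called higher. The 250 bases before the annotated start were taken from RefSeq's GRCm38.p6 and are printed 5′ to 3′ on the strand of the gene, Fntb from chr12:76837217-76837466 (plus), Wdfy4 from chr14:33185067-33185316 (minus), Zfp33b from chr5:104571422-104571671 (plus), Casp1 from chr9:5298267-5298516 (plus) and Casp4 from chr9:5308599-5308848 (plus). Capitals mark matches, on either strand, to a GC box (GGGCGG), an ETS motif (CCGGAAG) or a CCAAT box (CCAAT).
Fntb: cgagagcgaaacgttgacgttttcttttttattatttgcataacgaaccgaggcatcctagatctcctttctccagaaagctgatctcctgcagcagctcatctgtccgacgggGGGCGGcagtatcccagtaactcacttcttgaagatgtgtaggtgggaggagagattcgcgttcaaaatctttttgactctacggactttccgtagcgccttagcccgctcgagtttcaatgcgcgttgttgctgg
Wdfy4: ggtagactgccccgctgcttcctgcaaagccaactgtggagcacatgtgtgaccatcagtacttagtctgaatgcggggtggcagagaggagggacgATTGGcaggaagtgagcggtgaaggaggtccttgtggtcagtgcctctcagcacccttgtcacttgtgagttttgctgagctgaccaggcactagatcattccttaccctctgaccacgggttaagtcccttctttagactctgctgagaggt
Zfp33b: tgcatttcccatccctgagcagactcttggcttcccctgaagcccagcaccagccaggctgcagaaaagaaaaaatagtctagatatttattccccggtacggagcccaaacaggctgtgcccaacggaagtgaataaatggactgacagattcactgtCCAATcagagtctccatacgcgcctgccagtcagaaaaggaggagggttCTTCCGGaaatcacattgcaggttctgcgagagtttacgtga
Casp1: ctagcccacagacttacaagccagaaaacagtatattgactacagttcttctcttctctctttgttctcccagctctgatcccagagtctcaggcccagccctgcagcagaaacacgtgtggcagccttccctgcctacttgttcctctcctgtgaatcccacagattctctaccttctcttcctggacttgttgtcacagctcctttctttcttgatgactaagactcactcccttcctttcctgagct
Casp4: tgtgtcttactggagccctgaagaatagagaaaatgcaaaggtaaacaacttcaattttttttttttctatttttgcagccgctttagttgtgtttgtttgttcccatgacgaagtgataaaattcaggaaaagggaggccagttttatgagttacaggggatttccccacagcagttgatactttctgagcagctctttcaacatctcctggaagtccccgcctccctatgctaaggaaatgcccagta
The Fntb window held 1 GC box, the Wdfy4 window 1 CCAAT box, and the Zfp33b window 1 CCAAT box and 1 ETS motif. The Casp1 and Casp4 windows held none of these letters, nor an AP-1 (TGANTCA) or CRE (TGACGTCA) motif. Among 10889 promoter windows in tested regions, a GC box was found in 63.3%, a CCAAT box in 36.1%, an ETS motif in 15.2%, an AP-1 motif in 3.78% and a CRE in 2.96%. The GC box was in 30.8% of the 13 windows in regions called higher and in 48.4% of the 31 in regions called lower, and a CCAAT box in 53.8% and 35.5%. The median GC content was 48.8% in the higher windows, 58.0% in the lower ones and 61.2% in all windows in tested regions.

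Wdfy4 encodes a protein known for its part in cross-presentation by dendritic cells. Its promoter region had 0.274 and 1.30 CPM in FntbKO cTreg, against 8.10, 6.19 and 8.98 CPM in WT cTreg libraries (log2 fold -3.08, SE 0.44, edgeR adjusted p = 0.000486). It was thus close to closed in FntbKO and open in WT cells, with no overlap. The promoter region of Zfp33b, a zinc finger gene, had 18.2 and 17.2 CPM in FntbKO cTreg and 41.5, 36.1 and 29.2 CPM in WT cTreg libraries (edgeR adjusted p = 0.00135).

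On chromosome 9, the promoters of the inflammatory caspase genes Casp1 and Casp4 opened in FntbKO cells. Caspase-1 matures interleukin-1β, and the product of mouse Casp4, also called caspase-11, senses lipopolysaccharide inside the cell. The Casp1 promoter region had 29.3 and 27.0 CPM in FntbKO cTreg, against 17.7, 17.6 and 12.5 CPM in WT cTreg libraries (0.83, SE 0.17, edgeR adjusted p = 0.018). The Casp4 promoter region had 37.2 and 41.8 CPM, against 26.5, 24.1 and 22.1 CPM (0.71, SE 0.15, adjusted p = 0.0179). A region inside Casp4 had 11.5 and 11.3 CPM, against 5.31, 4.65 and 2.22 CPM (1.53, SE 0.28, adjusted p = 0.00845). The FntbKO libraries were above all WT libraries at each, and each of the 3 calls was lost without FntbKO cTreg 1 or without WT cTreg 3, that of the Casp4 promoter also without FntbKO cTreg 2.

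Promoters were not where most changes lay. Of tested promoter regions 0.418% were called, of regions in gene bodies 0.514%, of intergenic regions within 100 kb of a gene 0.657% and of those farther away 0.881%. Promoters made up 6.21% of the higher and 10.1% of the lower regions, against 11.9% of all tested ones. An assigned gene is the position of a region, and whether the region acts on that gene was not tested.

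A set of regions was nearly closed in cells of 1 genotype and open in the other. With a mean under 1 CPM in one group and of at least 4 CPM in the other, a rule chosen after the values were seen, 25 called regions were near 0 in FntbKO cTreg cells and 6 in WT cTreg cells. The 6 lay in or beside Arid5b, Iqgap2, Rapgef2, Uchl1 and Zfp791, and 1 had no gene within 100 kb. Among the 25 were regions of Akap7, Ddr1, Etv6, Sh3gl3, Timd2, Trim5, Trim30d, Wdfy4, Wnt11 and Zmiz1. In eTreg cells 6 of the 25 and 3 of the 6 were called as well, against 22.2% of all 433 regions called in cTreg cells.

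Iqgap2 encodes a scaffold protein that binds small GTPases and actin. A region inside it had 10.4 and 9.21 CPM in FntbKO cTreg, against 0.559, 0 and 1.06 CPM in WT cTreg libraries (chromosome 13, 95813630 to 95814031; edgeR adjusted p = 6.34e-05). A region 12.8 kb from Uchl1, a ubiquitin hydrolase gene, had 7.66 and 8.17 CPM, against 0.279, 0 and 0.634 CPM (chromosome 5, 66662987 to 66663318; adjusted p = 0.000171). With 14 and 8 counts in all 3 WT libraries, the sizes of these folds are not exact. Arid5b, a DNA-binding chromatin regulator gene, held a region with 4.51 and 5.51 CPM, against 0.559, 0 and 0.423 CPM (adjusted p = 0.00276). At each of these both FntbKO libraries were above every WT library. Nfia, a transcription factor gene, had a region with 9.57 and 8.56 CPM in FntbKO cTreg, against 1.40, 0.860 and 1.90 CPM in WT cTreg libraries (2.64, SE 0.37, adjusted p = 0.000486).

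In the other direction, a region inside Akap7, which encodes an anchor of protein kinase A, had 0.274 and 1.04 CPM in FntbKO cTreg, against 10.8, 5.16 and 6.34 CPM in WT cTreg libraries (chromosome 10, 25198613 to 25198946; -3.28, SE 0.47, edgeR adjusted p = 0.000532). Beside Timd2, a gene of the TIM receptor family, a region had 0.274 and 0.130 CPM, against 4.75, 2.75 and 4.23 CPM (chromosome 11, 46667933 to 46668596; adjusted p = 0.000502). Another Timd2 region, inside the gene, was also called lower (adjusted p = 0.00142). Ptprm, a receptor-type tyrosine phosphatase gene, had a region with 1.09 and 1.69 CPM in FntbKO cTreg, against 13.0, 9.98 and 9.51 CPM in WT cTreg libraries (-2.88, SE 0.35, adjusted p = 8.3e-05). The groups overlapped at none of these 4 regions, and all but the inner Timd2 region kept their call without any single library.

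**Figure D2:**
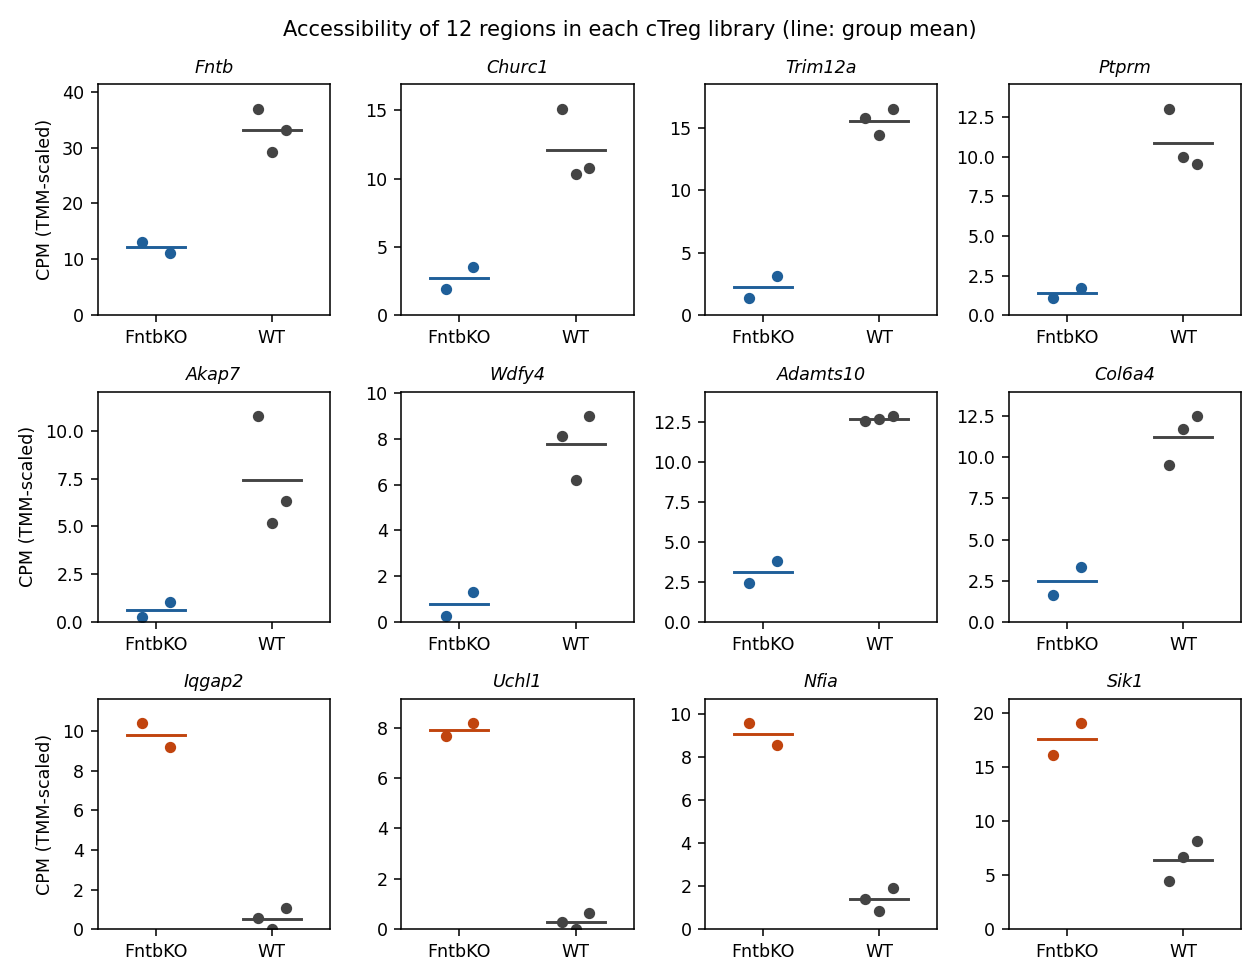
Accessibility (TMM-scaled CPM, vertical axes from 0) of 12 regions in each FntbKO cTreg library (left, 2 points) and each WT cTreg library (right, 3 points), with the group mean as a line. The FntbKO points of 8 regions, such as Trim12a at 1.37 and 3.11 CPM, lie below all WT points, and those of Iqgap2, Uchl1, Nfia and Sik1 lie above them.

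The 15 largest rises were taken among regions of at least median accessibility, with 1 region per gene. Sik1 encodes salt-inducible kinase 1. A region 34.7 kb from it had 16.1 and 19.1 CPM in FntbKO cTreg, against 4.47, 6.71 and 8.13 CPM in WT cTreg libraries (1.44, SE 0.23, edgeR adjusted p = 0.00154), and kept its call without any single library. The largest rise was inside Thrb, the thyroid hormone receptor β gene, with 30.1 and 19.1 CPM, against 5.86, 5.16 and 8.77 CPM (1.85, SE 0.26, adjusted p = 0.000486). Thrb had 3 regions called, all higher, of 21 tested. Fggy, which encodes a carbohydrate kinase, had 3 of 14 called, all higher. The one with the largest rise lay 82.3 kb from the gene, with 27.2 and 38.4 CPM in FntbKO cTreg, against 8.66, 16.2 and 9.93 CPM in WT cTreg libraries (1.54, SE 0.21, adjusted p = 0.000486).

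The other 12 rises of this set had log2 folds between 1.36 and 1.61. They lay in or near Cyria, an inhibitor of RAC1 signalling, Fryl, Tax1bp1, an autophagy receptor gene, Casp4, Bicdl1, Slc44a3, Ier3, Cd36, the fatty acid scavenger receptor gene, Nwd2, Fabp6, a bile acid binding protein gene, Gem, a small GTPase gene, and Immp2l, a mitochondrial peptidase subunit gene. The region of Cd36 had 11.2 and 9.92 CPM in FntbKO cTreg, against 3.91, 3.44 and 4.01 CPM in WT cTreg libraries (1.46, SE 0.34, edgeR adjusted p = 0.0432), a call lost when any of 8 libraries was left out. The Cd36 call and those at Bicdl1, Nwd2 and Immp2l were lost without WT cTreg 2. Of the 15 rises, those at Fggy and Sik1 kept their call without any single library, and the other 13 lost it without FntbKO cTreg 1.

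The 15 largest falls, also with 1 region per gene, included those at Trim5 and Trim12a, which lie close together on chromosome 7. The TRIM5 family encodes RING-finger proteins, some of which restrict retroviruses. A region inside Trim12a had 1.37 and 3.11 CPM in FntbKO cTreg, against 15.8, 14.5 and 16.5 CPM in WT cTreg libraries, and one 3.1 kb from Trim5 had 1.37 and 4.80 CPM, against 24.3, 22.0 and 22.0 CPM. The promoter of Trim30d had 0.547 and 1.30 CPM, against 8.66, 6.02 and 5.39 CPM (-2.70, SE 0.42, edgeR adjusted p = 0.00135), a call lost without FntbKO cTreg 1. In all, 5 of 20 regions of the family were called (25.0%, against 0.568% of all tested regions), all lower. Of these, 3 were at Trim5 and 1 each at Trim12a and Trim30d, and the median over the 20 was -0.31. Medians of members without a call ranged from -0.98 at Trim6 to 0.50 at Trim30c, with -0.14 at Trim12c and -0.02 at Trim21. The list was chosen with earlier results of these data known, so its high share is not independent support. How reads that match several family members were counted is not given in the sources used here, so these values are uncertain as to the member.

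A region 7.8 kb from Ube2e3, a ubiquitin-conjugating enzyme gene, had 4.38 and 5.12 CPM in FntbKO cTreg, against 15.1, 21.7 and 17.0 CPM in WT cTreg libraries (-1.89, SE 0.24, edgeR adjusted p = 9.41e-05). One 39.2 kb from Adamts10, a metalloprotease gene, had 2.46 and 3.83 CPM, against 12.6, 12.7 and 12.9 CPM (-1.96, SE 0.28, adjusted p = 0.000486). The region near Art2b, an ADP-ribosyltransferase gene of mouse T cells, had 1.37 and 3.24 CPM, against 12.3, 9.64 and 8.03 CPM (-1.99, SE 0.32, adjusted p = 0.00198). The remaining falls were at Slco3a1, Sez6l, Slc39a11, Zcwpw2, Cfap20dc, Chrne, Churc1, Col6a4 and Sh3gl3, between -2.44 and -1.85 on the log2 scale. Of the 15 falls, 9 kept their call without any single library, and those at Slco3a1, Sez6l, Zcwpw2, Cfap20dc, Art2b and Sh3gl3 lost it without FntbKO cTreg 1, that at Sez6l also without 3 other libraries.

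Some of the falls lay side by side along the chromosomes. Of 2204 bins of 1 Mb with tested regions, 302 held a call, 227 of them just 1. In 7 bins with at least 5 calls, 44 regions were lower and 4 higher. Runs of at least 2 neighbouring tested regions called the same way numbered 25, 18 lower and 7 higher, and held 59 regions.

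The densest interval lay on chromosome 11 between 113 and 114 Mb, where 15 of 62 tested regions were called, all lower, 13 of them assigned to Slc39a11, a zinc transporter gene. Over 207.2 kb from the first to the last called region, all 23 tested regions had a fold below 0. A region 70.1 kb from the gene had 10.4 and 19.6 CPM in FntbKO cTreg, against 75.3, 72.3 and 68.8 CPM in WT cTreg libraries (113173931 to 113174741; -2.20, SE 0.18, edgeR adjusted p = 1.95e-06), the smallest adjusted p of the comparison. Inside the gene, one had 4.10 and 7.13 CPM, against 21.2, 20.3 and 16.9 CPM (113267532 to 113268225; -1.73, SE 0.22, adjusted p = 0.000167). Neither showed overlap, and 5 regions of the interval kept their call without any single library.

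Sh3gl3, which encodes endophilin A3, had 6 of 14 regions called, all lower, on chromosome 7. Its promoter region had 1.37 and 3.89 CPM in FntbKO cTreg, against 9.50, 13.1 and 8.66 CPM in WT cTreg libraries (-1.85, SE 0.33, edgeR adjusted p = 0.00608). Cfap20dc had 5 of 10 called, all lower, with 1.37 and 4.02 CPM at its promoter, against 15.1, 15.1 and 10.1 CPM (-2.18, SE 0.33, adjusted p = 0.00127). Beside Ddr1, a collagen receptor kinase gene, 4 of 14 regions were lower, and one 57.4 kb from the neighbouring stress gene Ier3 was higher, with 11.9 and 9.21 CPM in FntbKO cTreg, against 3.63, 4.82 and 2.96 CPM in WT cTreg libraries (1.48, SE 0.31, adjusted p = 0.0186). Between 105 and 106 Mb of chromosome 5, Lrrc8b and Lrrc8c, subunit genes of volume-regulated anion channels, had a lower region each and Lrrc8d and the interferon-inducible GTPase gene Gbp6 a higher one each.

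**Figure D3:**
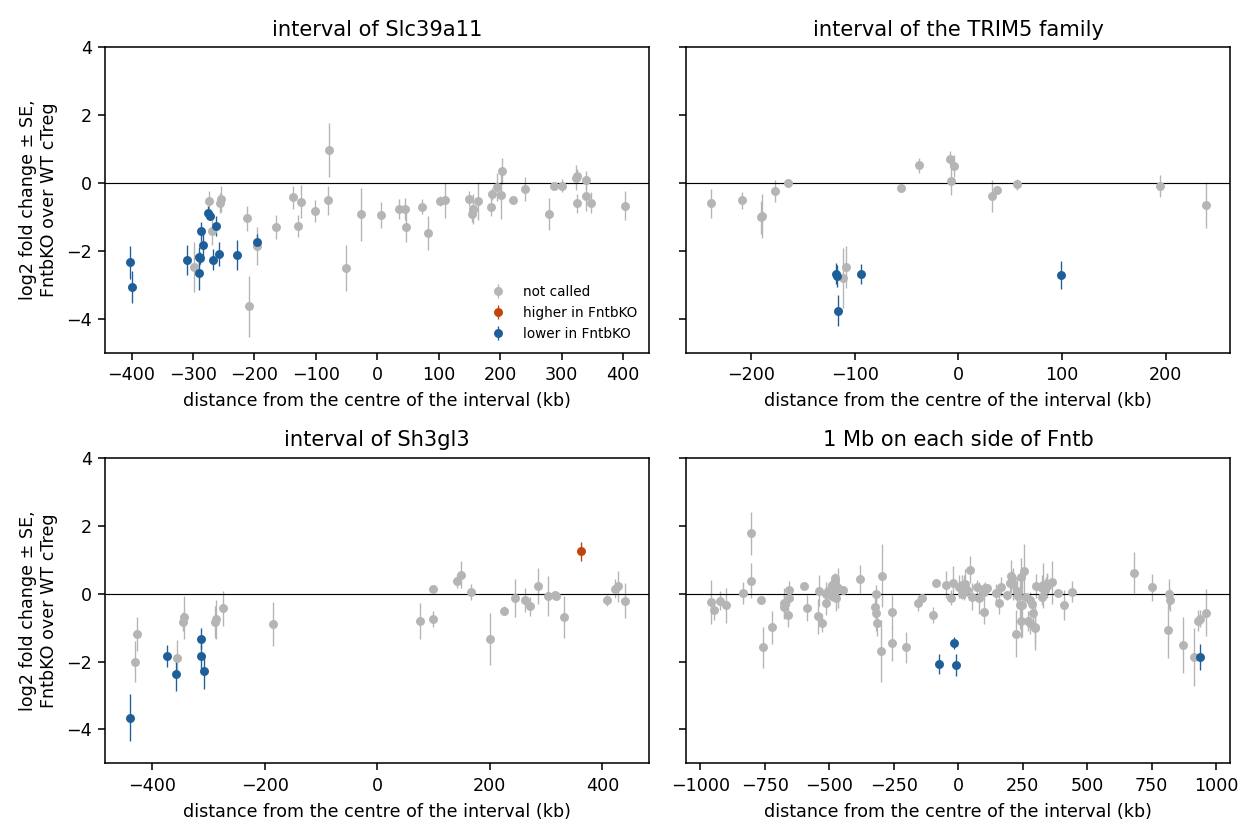
Log2 fold change of FntbKO over WT cTreg cells with its SE (vertical axes) for each tested region against its distance from the centre of the interval (kb), for the 1 Mb intervals of Slc39a11, the TRIM5 family and Sh3gl3 and for 1 Mb on each side of Fntb. Blue points were called lower, orange ones higher and grey ones not called. The called regions of Slc39a11 lie together over 207.2 kb, and 3 of the 4 beside Fntb lie within 100 kb of it.

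Calls in the farnesylation lists were read against the 0.568% of all regions called. Of 41 regions of the prenylation machinery, 2 were lower (4.88%), both of Fntb, and none of the other measured genes was called. The region of Fnta, which encodes the shared α subunit, averaged 38.3 CPM in FntbKO cTreg and 38.2 CPM in WT cTreg libraries. The 3 regions of Pggt1b, the β subunit of protein geranylgeranyl transferase type I, summed to 30.6 and 28.5 CPM on average. Those of Icmt, which methylates prenylated proteins, summed to 77.7 and 80.4 CPM, and those of Zmpste24, which processes prelamin A, to 16.4 and 16.2 CPM. Of 152 regions of farnesylated proteins and nuclear lamina genes, 2 were higher and 0 lower (1.32% called), with a median of 0.04 that turned to -0.03 without FntbKO cTreg 1. A region of Cenpe, a kinetochore motor that is itself farnesylated, had 10.8 and 9.21 CPM in FntbKO cTreg, against 3.63, 2.75 and 5.28 CPM in WT cTreg libraries (1.32, SE 0.29, edgeR adjusted p = 0.0285). A region of Tmpo, which encodes lamina-associated polypeptides, had 50.6 and 75.2 CPM, against 39.4, 43.9 and 40.1 CPM (0.63, SE 0.15, adjusted p = 0.0456). The Cenpe call was lost when any of 4 libraries was left out and the Tmpo call when any of 7 was.

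None of the 81 regions of sterol synthesis genes, of the 170 of mTORC1 and nutrient supply genes or of the 246 of the ERK pathway was called, where 0.568% of all regions were. Their medians were -0.07, -0.07 and 0.04, and that of sterol synthesis was -0.02 without FntbKO cTreg 1. In the ERK list, the region with the smallest p was inside Dusp10, a phosphatase gene that dampens MAP kinases, with 29.3 and 32.1 CPM in FntbKO cTreg, against 23.2, 16.5 and 18.0 CPM in WT cTreg libraries (edgeR adjusted p = 0.0791). None of 215 regions of TCR-induced genes or 349 of TCR signalling components was called either. Of the interferon response list 0 of 58 regions and of the helper T cell subset list 0 of 196 were called.

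Among effector Treg genes, 3 regions were lower and 1 higher of 403, a share of 0.993% where 0.568% of all regions were called. The median of the list was -0.11. Maf, a transcription factor gene of effector Treg cells, had a region 64.1 kb away with 6.02 and 9.27 CPM in FntbKO cTreg, against 17.3, 21.0 and 17.0 CPM in WT cTreg libraries (-1.22, SE 0.22, edgeR adjusted p = 0.00566). Nt5e, which encodes the adenosine-producing enzyme CD73, had a region with 4.24 and 5.90 CPM, against 15.2, 11.5 and 11.1 CPM (-1.28, SE 0.26, adjusted p = 0.0176). The promoter of the chemokine receptor gene Cxcr6 had 15.6 and 15.8 CPM, against 27.6, 24.1 and 26.2 CPM (-0.73, SE 0.17, adjusted p = 0.0442). Prdm1, which encodes the effector factor Blimp-1, went the other way, with 11.1 and 9.40 CPM at a region 9.4 kb away, against 2.79, 5.16 and 2.11 CPM (1.65, SE 0.36, adjusted p = 0.0258). All 4 calls were lost without FntbKO cTreg 1, and those of Nt5e, Prdm1 and Cxcr6 also without WT cTreg 1, with 4 libraries ending the Prdm1 call and 8 the Cxcr6 call.

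None of 448 regions of central Treg genes was called, where 0.568% of all tested regions were. The median of the list was 0.13 (0.06 without FntbKO cTreg 1 and WT cTreg 2), and its regions summed to 6104 and 5865 CPM in FntbKO cTreg, against 5756, 5315 and 5699 CPM in WT cTreg libraries. The effector list summed to 4551 and 4847 CPM, against 4844, 5217 and 4994 CPM, and its median was -0.001 without the same pair of libraries. The central list thus lay higher in both FntbKO libraries than in any WT library, while the effector list overlapped between the groups. This was not particular to the central list. The sums of the AP-1, BATF, BACH and IRF, interferon response, TCR signalling, apoptosis, helper T cell subset and erythroid lists were also higher in both FntbKO libraries. Those of the mTORC1, TRIM5 family and myeloid lists were lower in both. The medians were 0.15 for the interferon list and 0.12 for the AP-1, BATF, BACH and IRF list. Markers of conventional naive CD4 T cells, which share genes with the central list, moved with it, at 2852 and 2684 CPM, against 2599, 2406 and 2584 CPM, with none of 196 regions called. The part of cell composition in the called regions was not tested.

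Of 301 regions of Treg identity genes, 3 were lower and none higher (0.997% called, against 0.568% of all regions), with a median close to 0. Lrrc32 encodes GARP, which presents latent TGF-β on Treg cells, and its region had 12.4 and 17.4 CPM in FntbKO cTreg, against 28.6, 27.9 and 29.5 CPM in WT cTreg libraries (-0.92, SE 0.17, edgeR adjusted p = 0.00861). Runx1, a partner of FOXP3, had a region with 1.91 and 2.85 CPM, against 5.03, 9.64 and 5.70 CPM (-1.43, SE 0.32, adjusted p = 0.0338). A region 14.5 kb from the inhibitory receptor gene Ctla4 had 1.91 and 0.778 CPM, against 2.79, 5.68 and 5.07 CPM (-1.87, SE 0.44, adjusted p = 0.0442). The Lrrc32 call was lost without FntbKO cTreg 1, the Runx1 call without any of 4 libraries and the Ctla4 call without any of 9.

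Of the AP-1, BATF, BACH and IRF list 2 of 276 regions (0.725%) were lower, where 0.568% of all regions were called, that of Maf and one 58.6 kb from Nfe2l2, the gene of the oxidative stress factor NRF2. The Nfe2l2 region had 0.274 and 1.04 CPM in FntbKO cTreg, against 3.63, 3.44 and 2.96 CPM in WT cTreg libraries (-2.14, SE 0.49, edgeR adjusted p = 0.0341). Of 159 regions of cell cycle genes 1 (0.629%) was lower, 19.2 kb from the proliferation marker gene Mki67, with 40.8 and 38.4 CPM, against 64.5, 68.3 and 78.3 CPM (-0.84, SE 0.14, adjusted p = 0.00349). None of 188 regions of apoptosis genes was called. Of 33 regions of the B cell list, whose median was -0.34, 1 was called, a higher one of Bank1 (5.20 and 5.96 CPM, against 1.40, 0.344 and 1.27 CPM; adjusted p = 0.0178) and of 48 regions of the dendritic cell list 1 was lower, at the factor gene Zbtb46 (26.7 and 34.1 CPM, against 45.2, 51.6 and 40.1 CPM; adjusted p = 0.0456). The Mki67 call was lost without FntbKO cTreg 1, the Nfe2l2 call without any of 6 libraries, the Bank1 call without any of 4 and the Zbtb46 call without any of 8.

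**Figure D4:**
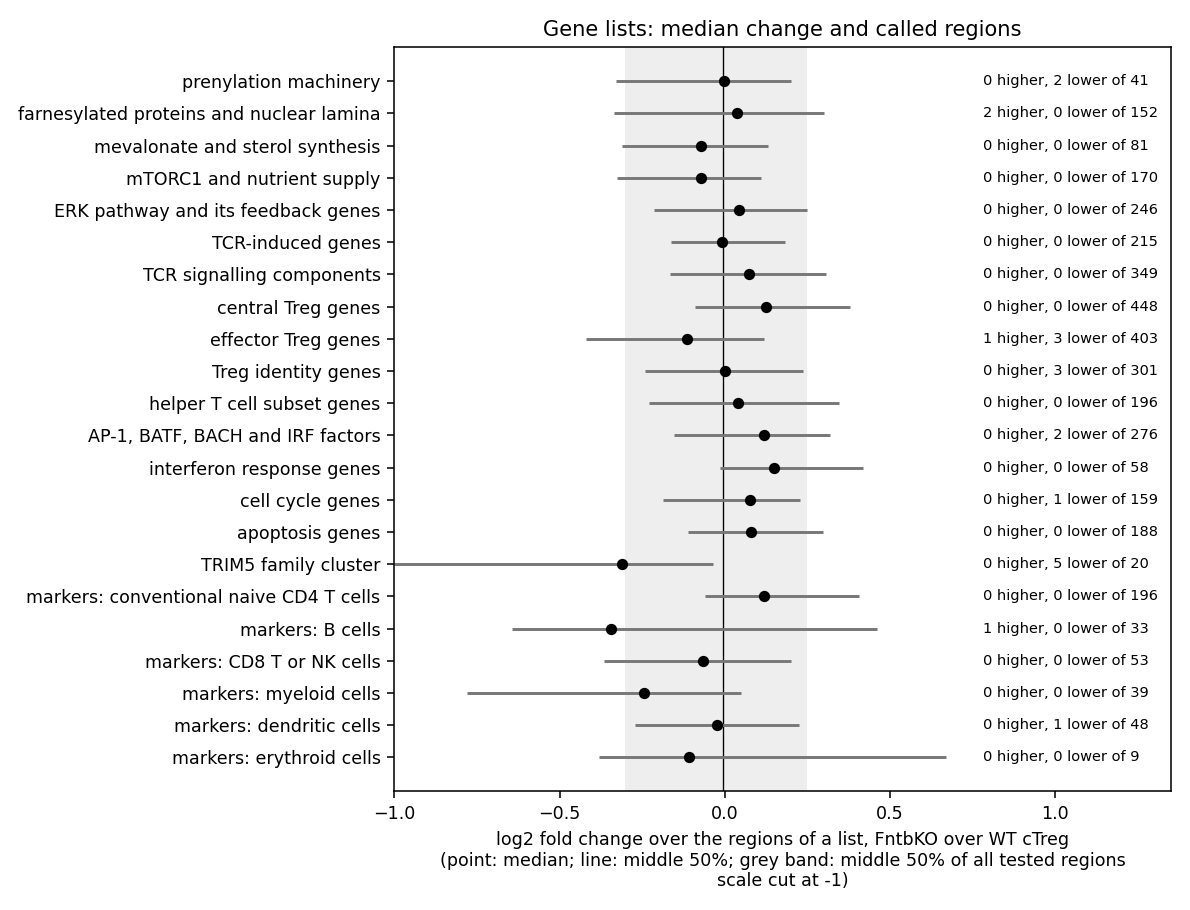
Median log2 fold change of FntbKO over WT cTreg cells (points) and the middle 50% of regions (lines) for 22 gene lists, with the number of regions called higher and lower of those tested. The grey band is the middle 50% of all tested regions. The TRIM5 family, at -0.31 with 5 of 20 regions lower, and the B cell markers, at -0.34 (-0.13 without FntbKO cTreg 1) with 1 of 33 higher, have the lowest medians with all libraries. The lists were chosen with earlier results of these data known.

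The same contrast in eTreg cells used other libraries, 2 FntbKO and 3 WT, within the same fit. Whether cTreg and eTreg libraries came from the same animals is not given in the sources used here. In eTreg cells 267 regions were called (0.350%). Of the 433 regions called in cTreg cells, 96 were called in eTreg cells in the same direction and 0 in the opposite one, which is 22.2% of the cTreg and 36.0% of the eTreg calls. A fold of the same sign was found at 421 of the 433 (97.2%), against 64.7% of all tested regions. The 433 were chosen in cTreg cells, a choice that by itself favours larger folds there. The median was 1.18 in cTreg and 0.74 in eTreg cells for the higher regions, and -1.30 and -0.78 for the lower ones. Of the 33 regions that kept their call without any single library, 25 were also called in eTreg cells.

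The difference between the subsets was tested as an interaction term. With edgeR 0 regions (0%) passed at an adjusted p of 0.05, and 3099 (4.07%) had an unadjusted p below 0.05. DESeq2 and limma-voom also called 0. The largest differences among the 433 by p were a region of Col6a5, a collagen VI chain gene, one of Trpm6, a magnesium channel gene, and that of Nfia. The Col6a5 region had 10.4 and 17.9 CPM in FntbKO cTreg and 33.7, 35.8 and 30.8 CPM in WT cTreg libraries, and 32.9 and 33.1 CPM in FntbKO eTreg and 34.9, 32.9 and 39.0 CPM in WT eTreg libraries. FntbKO cTreg cells stood alone at this region, but its interaction had an edgeR adjusted p of 1. The region inside Nfia had 2.80 and 4.53 CPM in FntbKO eTreg and 2.89, 2.39 and 3.73 CPM in WT eTreg libraries, where the genotypes overlapped, also with an interaction adjusted p of 1.

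**Figure D5:**
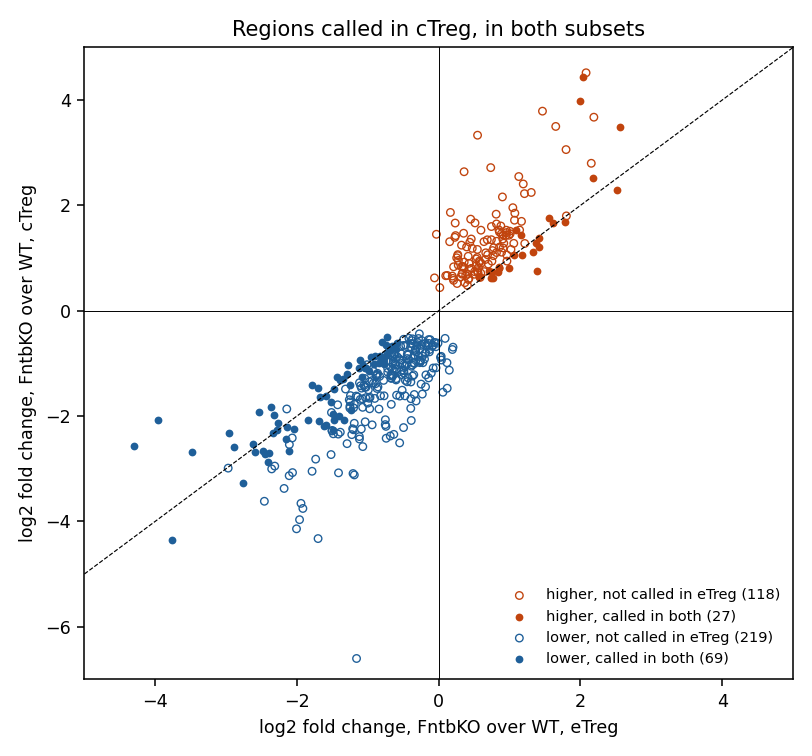
Log2 fold change of FntbKO over WT in cTreg cells (vertical axis) against that in eTreg cells (horizontal axis) for the 433 regions called in cTreg cells, orange for higher and blue for lower. Filled points, 27 higher and 69 lower, were also called in eTreg cells, and the dashed line marks equal folds. The regions were chosen by their cTreg fold.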

How the data were processed

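ATAC-seq was done on Treg cells of 4 groups, and the 10 libraries share 1 table of 77076 regions. Per the submitters' processing notes, the authors used MACS2 2.1.1, bedtools, SAMtools, Trimmomatic 0.36 and Picard 2.9.4, with mm10 and GRCm38, and the aligner and the merging of regions are not given in the sources used here. The deposited values are raw counts per region, without normalization. Even numbers made up 66.7% to 78.9% of a library's counts, so halved counts were an alternative. The table does not state whether its starts count from 0 or 1.

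Counts were scaled by TMM and tested in edgeR 4.0.16 (R 4.3.3) with robust quasi-likelihood fits, filterByExpr on the 4 groups and 1 mean per group. All 10 libraries entered, so that the groups share their spread. The threshold for a call was an adjusted p under 0.05 (Benjamini-Hochberg, over 76216 regions). A region took the protein-coding gene whose promoter window (250 bases before to 50 after a RefSeq start, GRCm38.p6) it overlapped, otherwise the smallest gene span it overlapped, otherwise the nearest span within 100 kb, and 72671 (94.3%) received a gene. Promoter windows replaced the planned class of regions at a gene end. DESeq2 1.42.0, limma 3.58.1, other scalings and filters, and fits without each library were alternatives. Scripts were tested on simulated counts.

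The text names, among called regions at or above the median log2 CPM of 2.42 without overlap of the groups, the 15 largest rises and falls by gene, the regions of Fntb, Foxp3 and Ptprc, up to 4 called regions per list or the one with the smallest p, bins of 1 Mb with at least 5 calls, and runs of neighbours. Regions named for other reasons (promoters, regions near 0, calls kept without any library, subset differences) were chosen after their values were seen. The members and lists were chosen with earlier results of these data known. Region sequence outside promoter windows was not analysed here, and the regions of some genes that this rule names are not reported here.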

Additional observations from a re-analysis of the deposited data

How the results depend on the processing

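The 433 regions called in cTreg cells came to 394 to 557 under the other scalings, filters and tools, 641 with halved and 432 with thinned counts. They came to 288 (90 higher) with an absolute log2 fold of at least 1, 247 (88 higher, 159 lower) with the 5 cTreg libraries alone, and 43 (20 higher, 23 lower) without WT cTreg 2 and FntbKO cTreg 1 together. Regions called higher numbered 221 with limma-voom and 281 with halved counts. With 1 library left out, between 41 and 723 were called, 13 to 134 higher and 28 to 589 lower. Where this left 1 FntbKO library, it was assumed to vary like the other groups. The 267 regions called in eTreg cells came to 150 with the fold limit, 407 with DESeq2, 802 with the 5 eTreg libraries alone, 698 without WT cTreg 2 and FntbKO cTreg 1, 455 with halved counts, and 9 to 507 with 1 library left out. The interaction gave 0 calls under every alternative run. Fits with fewer libraries aside, the cause of these changes was not tested.

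Replicate numbers are shared between the genotypes, but the labels tie no number to an animal or a day, and only 2 pairs exist. Whether same-numbered samples share more than the number is therefore not known. Deviations of same-numbered cTreg libraries from their group means had correlations of 0.115 and 0.141. The deviations of the 2 FntbKO libraries mirror each other, so these values are not independent, and differently numbered libraries were not compared. With a replicate block 990 regions were called in cTreg (334 higher, 656 lower) and 655 in eTreg cells. Among the 48 regions named by rule no alternative turned a direction, and 160 of 1056 values lost the call. Calls were fewer at weak regions: 0.136% were called among the 19054 least accessible regions and 0.939% among as many of the most accessible ones.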

Other observations

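Some 1 Mb intervals had medians away from 0 in FntbKO cTreg cells. Of 1382 bins with at least 20 tested regions, 29 had a median log2 fold of -0.4 or less and 6 of 0.4 or more, a limit chosen after the values were seen, and all 35 had a median of the same sign in eTreg cells. The summed CPM of the cTreg libraries did not overlap between the genotypes in 32 of the 35 and overlapped in 3. The bins were chosen by the folds of these same libraries, which by itself favours such a gap. Neither this share nor that of the same sign in eTreg cells was counted over all 1382 bins. Chromosome 11 held 8 of the 29. Between 109 and 110 Mb of it, 80 of 83 regions had a fold below 0 in cTreg and 71 in eTreg cells, with medians of -0.71 and -0.48, and 5 regions were called. The regions of this bin summed to 838 and 928 CPM in FntbKO cTreg, against 1166, 1418 and 1232 CPM in WT cTreg libraries. Those between 113 and 114 Mb summed to 398 and 437 CPM, against 720, 752 and 698 CPM. In the other direction, 20 regions between 17 and 18 Mb of chromosome 14, where Thrb lies, had a median of 0.69, with sums of 184 and 139 CPM in FntbKO cTreg, against 90.6, 78.5 and 96.1 CPM in WT cTreg libraries.

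By chromosome, the median fold in cTreg cells was lowest on chromosome 9 (-0.09, and -0.06 in eTreg cells) and highest on chromosome 16 (0.10, and 0.07 in eTreg cells). The share of regions called was highest on chromosome 14 (1.06%) and chromosome 7 (0.943%) and lowest on the X chromosome (0.200%), where 4 of 2004 regions were called, all lower. What sets these positions apart was not tested.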
